A study of Rattus norvegicus with 9 samples.

Results

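The 10 genes here encode the NF-κB transcription factor subunits and inhibitors or other regulators of the pathway, several of them induced by NF-κB itself. They were taken by symbol: the subunits Nfkb1, Nfkb2, Rela, Relb and Rel, the IκB genes Nfkbia, Nfkbib and Nfkbie, and the ubiquitin-system genes Tnfaip3 and Birc3. All 10 of 10 were found among the 22050 genes measured, and all passed the filter on low counts that left 11473 tested genes. Transcript levels came from RNA-seq of NRK-49F, an established fibroblast line of rat kidney that the labels give as wild type. Every group received TGF-β1, with an incubation given as 48 h: 3 libraries with YWCH-4A added, 3 with YEXX-2A added and 3 with vehicle. The compounds are known here by code name alone, neither their dose nor their timing is given, and no library without TGF-β1 was analysed here.

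NF-κB proteins bind DNA as dimers of the 5 subunits. In resting cells IκB proteins hold the dimers in the cytoplasm; signals from cytokine and Toll-like receptors activate the IKK kinase complex, IκB is degraded and the dimers enter the nucleus. Many of their target genes encode brakes on the same pathway, so transcripts of IκBα, of the ubiquitin-editing enzyme Tnfaip3 and of the precursors of the subunits are widely used as readouts. In kidney fibroblasts the pathway is known for chemokine, cytokine and matrix protease genes.

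Promoter stretches are shown because binding sites for NF-κB next to the gene are the textbook basis of this feedback. RefSeq (build GRCr8) promoter windows of 250 bases before and 50 bases after the transcription start were available for 8 of the 10 genes, not for Relb and Birc3. The κB consensus GGGRNNYYCC, a motif of 10 letters, was searched on both strands. R stands for A or G, Y for C or T and N for any base. It matched in 6 of these 8 windows, against 7.51% of all 33469 RefSeq promoters and 9.9% of the 8255 promoters of tested genes. The 8255 are of tested genes with a single RefSeq promoter, whereas the 33469 include every promoter. Overlapping matches were merged into spans, and capitals mark each span in the stretches below, written 5′ to 3′ on the strand of the gene.
Tnfaip3 (chr1:15543980-15544159, minus strand): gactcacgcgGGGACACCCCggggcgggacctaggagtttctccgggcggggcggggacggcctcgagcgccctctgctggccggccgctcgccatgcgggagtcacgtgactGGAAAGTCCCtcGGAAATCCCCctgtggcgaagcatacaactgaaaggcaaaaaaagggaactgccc
Nfkbia (chr6:78597073-78597172, minus strand): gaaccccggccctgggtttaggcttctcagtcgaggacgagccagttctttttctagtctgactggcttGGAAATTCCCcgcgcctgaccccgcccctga
Nfkb2 (chr1:255108274-255108373, plus strand): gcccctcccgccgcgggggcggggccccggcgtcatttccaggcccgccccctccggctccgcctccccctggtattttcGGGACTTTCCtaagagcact
Nfkb1 (chr2:226805450-226805522, minus strand): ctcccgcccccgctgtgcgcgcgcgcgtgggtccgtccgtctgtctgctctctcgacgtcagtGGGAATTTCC
Nfkbie (chr9:22947973-22948072, minus strand): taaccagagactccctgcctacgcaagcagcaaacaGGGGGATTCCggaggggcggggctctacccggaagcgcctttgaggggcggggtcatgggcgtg
Rel (chr14:101921939-101922038, minus strand): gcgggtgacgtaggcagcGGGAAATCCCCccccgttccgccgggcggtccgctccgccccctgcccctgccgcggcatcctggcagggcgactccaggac

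Tnfaip3 held 3 spans, of which the pair nearest the start lay 67 and 55 bases upstream at their far ends, and Rel held 2, of which 1 is shown. The single Nfkbia span ran over bases -31 to -22 and reads GGGAATTTCC on the opposite strand, the same letters as the Nfkb1 span on its own strand. The Nfkb1 span lay just past the start, over bases 4 to 13. No match to the κB consensus lay in the windows of Rela and Nfkbib. A looser form, GGGNNNNNCC, occurred in 8 of the 8 windows, in 67.6% of promoters of tested genes and in 47.3% of all promoters. A match is a description of the sequence and not a measured binding site.

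**Figure D1:**
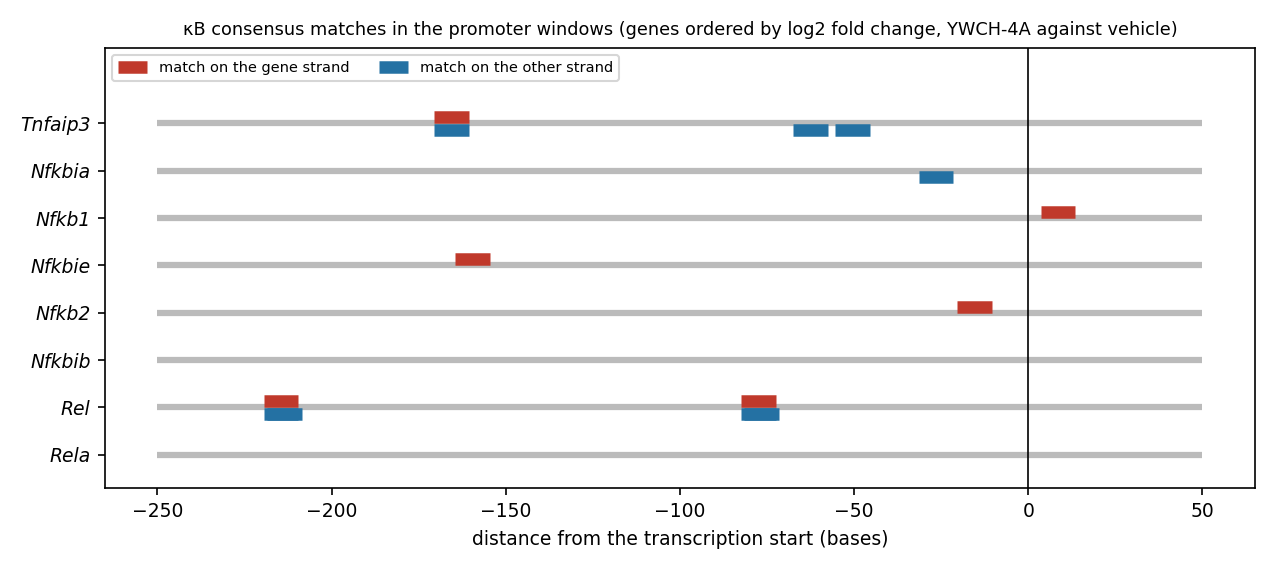
Positions of κB consensus matches in the promoter windows of 8 genes. The x axis is the distance from the transcription start in bases; rows are ordered by the log2 fold change with YWCH-4A against vehicle, red marks are matches on the strand of the gene and blue marks matches on the other strand. Tnfaip3 and Nfkbia, at the top, have matches within 67 bases of the start, and so do Nfkb1 and Nfkb2. Rel has matches but was not called with YWCH-4A against vehicle. Rela and Nfkbib have none, and of these Nfkbib was called higher.

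Total estimated counts per library ran from 13675868 to 21923715, and levels between groups are given as CPM, counts scaled to a common library size with TMM factors. Vehicle replicate 2 stood apart: its score on the main axis of variation within groups was 36.4, and the other 8 libraries lay between -21.2 and 10.9. It was the highest vehicle library for 5 of the 10 genes and the lowest for 4. Among the fibroblast markers Col1a1, Col3a1, Pdgfrb and Vim were abundant, but Thy1 and Dcn were near 0, at no more than 0.888 CPM. Of 12 leukocyte markers, Cd68 and Cd14 alone passed the filter and made up nearly all of the summed level, which was 179 to 193 CPM with YWCH-4A, 136 to 139 CPM with YEXX-2A and 156 to 189 CPM with vehicle. Ptprc, the pan-leukocyte marker, was at most 0.091 CPM, and Cd3e, a T cell marker, was at 0 in all 9 libraries. Summed endothelial markers stayed at or under 4.46 CPM. Of the 10 epithelial markers Krt8 was the abundant one, with Epcam, Umod and Krt18 at 0, and their sum was 897 to 946 CPM with YWCH-4A, 1482 to 1568 CPM with YEXX-2A and 1713 to 2203 CPM with vehicle. The 11 fibroblast markers, of which 9 passed the filter, summed to 12157 to 13242 CPM with YWCH-4A, 35140 to 38662 CPM with YEXX-2A and 46276 to 60322 CPM with vehicle, for the most part Col1a1. Markers differed within the list: Pdgfra was at 286 to 297 CPM with YWCH-4A, 179 to 187 CPM with YEXX-2A and 157 to 197 CPM with vehicle, and S100a4 was at 324 to 347, 301 to 362 and 257 to 317 CPM in the same groups. Whether the fibroblast and epithelial marker levels had a part in the results below was not tested.

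With YWCH-4A most of the NF-κB genes rose, led by Tnfaip3 and Nfkbia. Against vehicle, 8 of the 10 were called higher at an adjusted p under 0.05 in edgeR's quasi-likelihood test and 0 were called lower, where 15.7% of all tested genes were called higher and 14.9% lower. Of the 10, 5 were called at least 2-fold higher, against a background of 3.21%. The 8 also had YWCH-4A libraries all above the vehicle libraries, an arrangement found for 24.9% of tested genes. The median log2 fold change of the 10 was 1.00, against 0.03 over all tested genes. In RNA from whole cultures, a larger share of responding cells and more RNA per cell cannot be told apart.

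**Figure D2:**
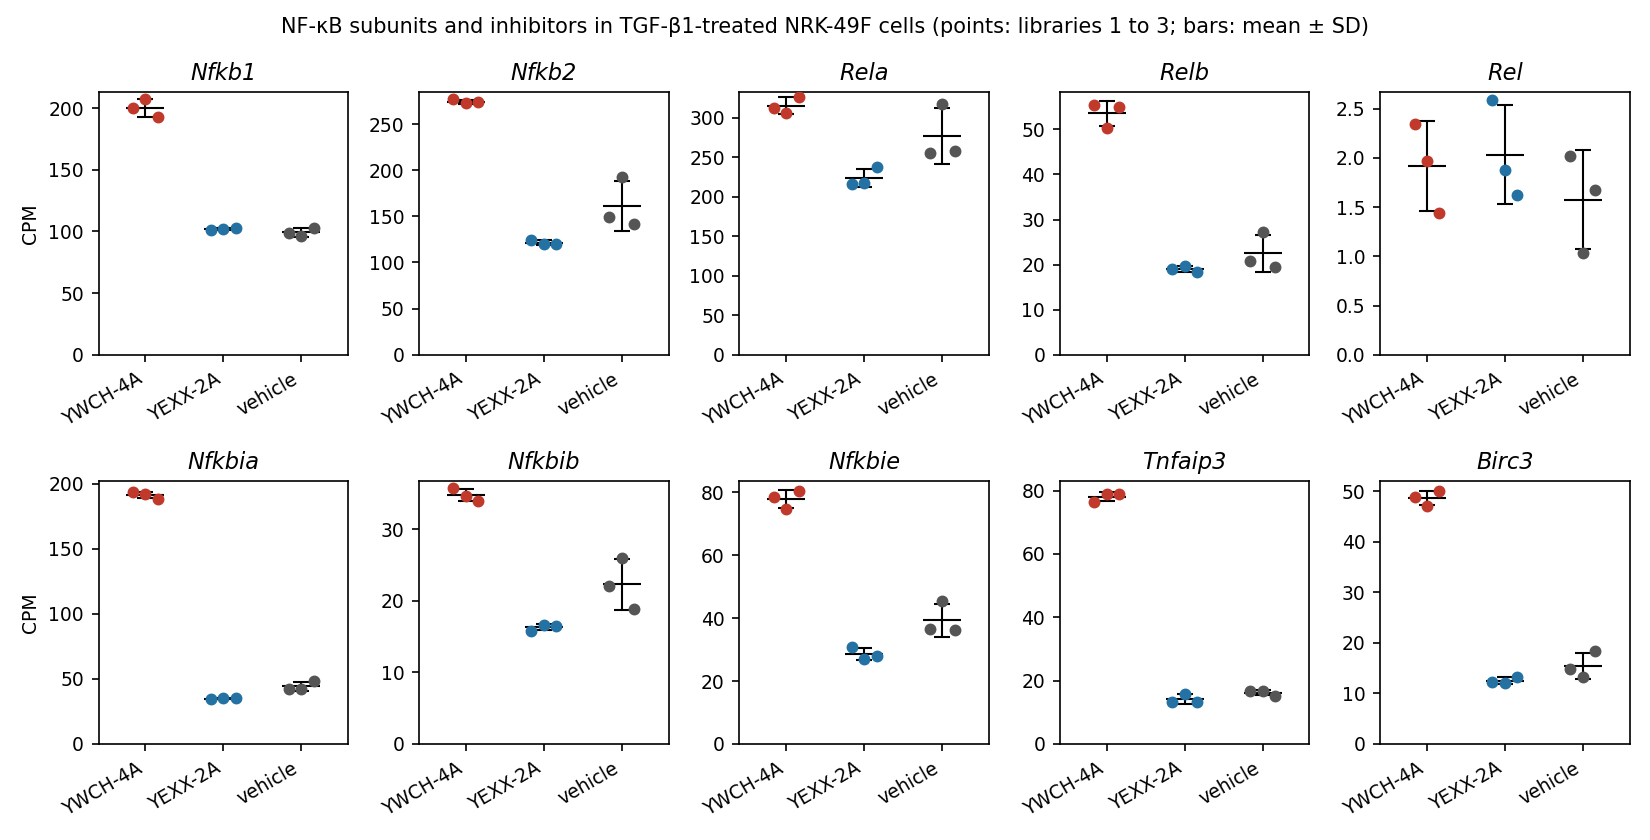
Level of each of the 10 genes in every library, in CPM on the y axis, for YWCH-4A (red), YEXX-2A (blue) and vehicle (grey). Points are libraries 1 to 3 of a group and bars the mean ± SD. Nfkbia libraries with YWCH-4A lie at 189 to 193 CPM, well above every other library, while Rela and Rel libraries with YWCH-4A overlap those with vehicle.

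The IκB genes come first. Nfkbia encodes IκBα, the fast inhibitor that is degraded on signalling and resynthesised under NF-κB control. It had 193, 192 and 189 CPM with YWCH-4A, 34.5, 35.0 and 34.9 CPM with YEXX-2A and 42.5, 42.1 and 48.5 CPM with vehicle. The YWCH-4A libraries were far above all others, and every YEXX-2A library was below every vehicle library. The log2 fold change was 2.11 ± 0.07 (SE) with YWCH-4A against vehicle, a 4.32-fold rise (edgeR adjusted p = 9.77e-09), and -0.35 ± 0.07 with YEXX-2A against vehicle (edgeR adjusted p = 0.00801). Only 1.1% of tested genes had a larger log2 fold change with YWCH-4A against vehicle.

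Nfkbie encodes IκBε, an inhibitor that acts mainly on dimers containing Rela or Rel. Its levels were 78.5, 74.6 and 80.4 CPM with YWCH-4A, 30.7, 27.1 and 27.8 CPM with YEXX-2A and 36.5, 45.3 and 36.2 CPM with vehicle, so the 3 groups did not overlap. The log2 fold change was 0.99 ± 0.10 with YWCH-4A (edgeR adjusted p = 2.52e-05) and -0.46 ± 0.10 with YEXX-2A (edgeR adjusted p = 0.0103), each against vehicle. Nfkbib encodes IκBβ, a slower and more stable inhibitor. It had 35.7, 34.6 and 34.0 CPM with YWCH-4A, 15.8, 16.6 and 16.5 CPM with YEXX-2A and 22.1, 26.0 and 18.9 CPM with vehicle. These groups too were separate, and the change was the smallest of the 3 IκB genes: 0.64 ± 0.11 on the log2 scale with YWCH-4A against vehicle (edgeR adjusted p = 0.00135). With YEXX-2A against vehicle it was -0.45 ± 0.11 (edgeR adjusted p = 0.0163).

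The ubiquitin-system genes rose strongly with YWCH-4A, and Tnfaip3 more than any other member. Tnfaip3 encodes a ubiquitin-editing enzyme that shuts off signalling upstream of IKK. It had 76.4, 79.1 and 78.9 CPM with YWCH-4A, 13.2, 15.9 and 13.3 CPM with YEXX-2A and 16.7, 16.6 and 15.2 CPM with vehicle. Its YWCH-4A libraries were high and alike, whereas YEXX-2A and vehicle libraries overlapped. The log2 fold change was 2.27 ± 0.09 with YWCH-4A against vehicle, 4.83-fold (edgeR adjusted p = 3.73e-08), and -0.19 ± 0.10 with YEXX-2A against vehicle, which was not called (edgeR adjusted p = 0.13; 95% interval -0.41 to 0.02).

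Birc3 encodes a ubiquitin ligase of the TNF receptor complex that also restrains the alternative NF-κB pathway. It had 48.8, 47.1 and 49.965 CPM with YWCH-4A, 12.2, 12.0 and 13.3 CPM with YEXX-2A and 14.8, 13.1 and 18.3 CPM with vehicle. The YWCH-4A libraries stood clear, with a log2 fold change of 1.66 ± 0.12 against vehicle (edgeR adjusted p = 1.86e-06), and the YEXX-2A and vehicle ranges touched. With YEXX-2A against vehicle Birc3 was not called, at -0.30 ± 0.12 (edgeR adjusted p = 0.0687); it was called without vehicle replicate 2 (edgeR adjusted p = 0.00598). Birc3 has a close paralogue, Birc2, and reads may be split between them; Birc2 was not called, at 0.18 ± 0.20 with YWCH-4A and 0.37 ± 0.20 with YEXX-2A against vehicle (edgeR adjusted p = 0.533 and 0.152).

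Among the subunits, those made as precursors and Relb rose. Nfkb1 encodes p105, the precursor of p50, whose uncleaved form also acts as an inhibitor. It had 200.2, 208 and 193 CPM with YWCH-4A, 101, 102 and 103 CPM with YEXX-2A and 98.7, 96.2 and 103 CPM with vehicle. Its level with YWCH-4A was about double that of the other groups, which overlapped: the log2 fold change was 1.01 ± 0.06 with YWCH-4A against vehicle (edgeR adjusted p = 4.48e-07) and 0.04 ± 0.06 with YEXX-2A against vehicle (edgeR adjusted p = 0.608). The 95% interval for YEXX-2A, -0.09 to 0.17, holds small changes only.

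Nfkb2 encodes p100, the precursor of p52 and the central protein of the alternative pathway. It had 277, 272 and 273 CPM with YWCH-4A, 125, 119.6 and 119.7 CPM with YEXX-2A and 149, 193 and 142 CPM with vehicle. Vehicle replicate 2 was the highest vehicle library by a wide margin, and the groups still did not overlap. The log2 fold change was 0.77 ± 0.10 with YWCH-4A (edgeR adjusted p = 0.000189) and -0.41 ± 0.10 with YEXX-2A (edgeR adjusted p = 0.0149), each against vehicle. Relb, the usual partner of p52, had 55.5, 50.4 and 54.9 CPM with YWCH-4A, 19.0, 19.6 and 18.3 CPM with YEXX-2A and 20.8, 27.2 and 19.5 CPM with vehicle. YWCH-4A libraries were again clear of the rest, and the other groups touched. Relb rose by 1.26 ± 0.12 on the log2 scale with YWCH-4A against vehicle (edgeR adjusted p = 1.68e-05) and was not called with YEXX-2A, at -0.24 ± 0.12 (edgeR adjusted p = 0.129).

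Rela and Rel were the genes not called with YWCH-4A against vehicle. Rela encodes p65, the main activating subunit, which is abundant in most cells before any signal. It had 313, 306 and 327 CPM with YWCH-4A, 217, 217 and 238 CPM with YEXX-2A and 255, 317 and 258 CPM with vehicle. Vehicle replicate 2 lay within the YWCH-4A range, and the YEXX-2A libraries were below all others. The log2 fold change with YWCH-4A against vehicle was 0.19 ± 0.09 (edgeR adjusted p = 0.122; 95% interval -0.00 to 0.38), which excludes a rise as large as those of the called members. Without vehicle replicate 2 it was 0.30 and past the threshold (edgeR adjusted p = 0.0001), which made 9 called members. On the FPKM scale it was also past the threshold, at 0.37 with a pseudocount of 1 (limma-trend adjusted p = 0.00191), where the median over all genes was itself 0.19.

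Rel encodes c-Rel, best known from lymphoid cells. It was barely expressed, with 2.35, 1.97 and 1.44 CPM with YWCH-4A, 2.59, 1.88 and 1.63 CPM with YEXX-2A and 2.02, 1.03 and 1.68 CPM with vehicle. All 3 groups overlapped, with at most 57 counts in a library. The log2 fold change with YWCH-4A against vehicle was 0.28 ± 0.30 (edgeR adjusted p = 0.514), and its 95% interval of -0.39 to 0.95 would hold even a sizeable change.

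**Figure D3:**
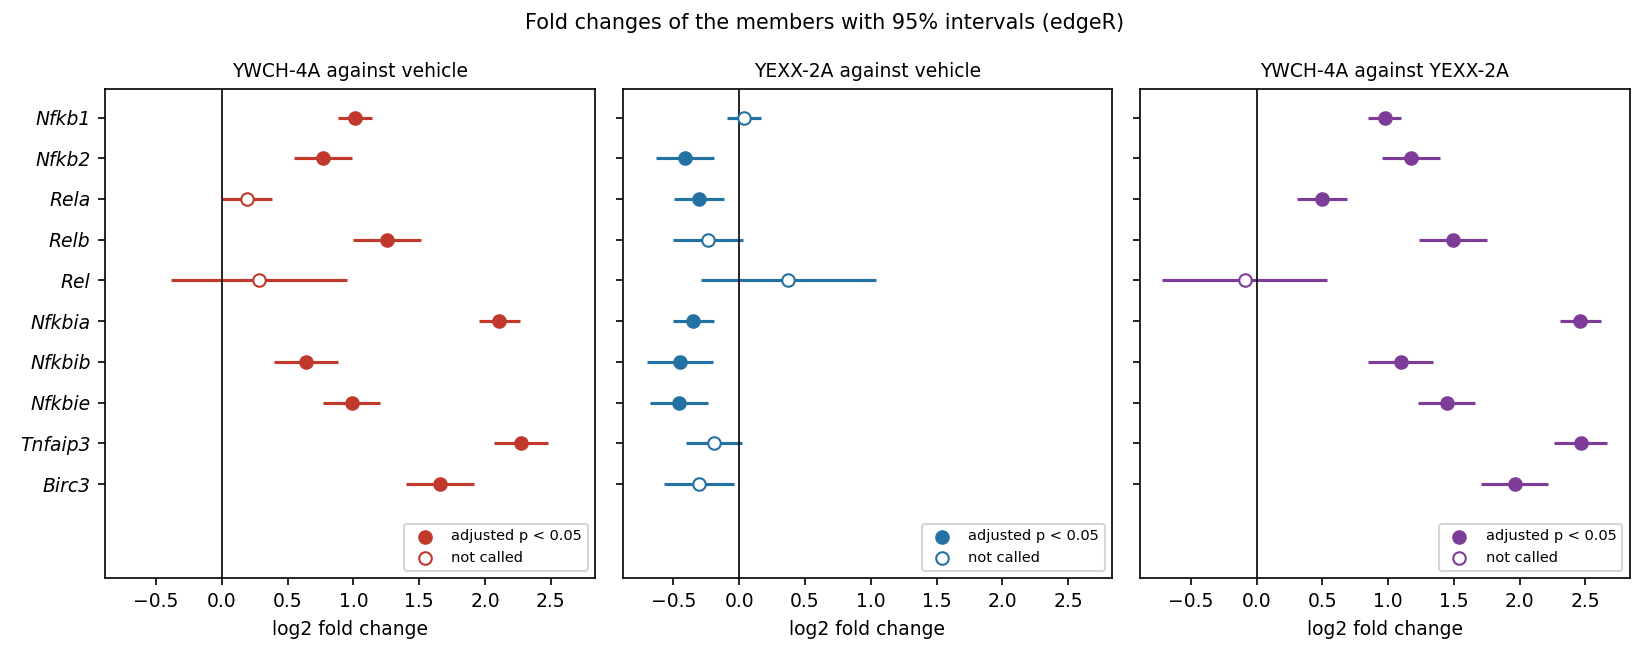
Log2 fold change of the 10 genes (x axis) in the comparisons of YWCH-4A with vehicle, YEXX-2A with vehicle and YWCH-4A with YEXX-2A, 3 libraries a group. Lines are 95% intervals, filled points are called at an adjusted p under 0.05 in edgeR and open points are not. With YWCH-4A against vehicle 8 points are filled, all to the right of 0; with YEXX-2A against vehicle 5 are filled, all to the left.

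With YEXX-2A some of the NF-κB genes were slightly lower than with vehicle. Of the 10, 5 were called lower and 0 higher, where 18.5% of all tested genes were called lower and 17.6% higher (36.1% in all): Nfkb2, Rela, Nfkbia, Nfkbib and Nfkbie. Their libraries also lay below every vehicle library, which held for 26.3% of tested genes. The changes were small, from -0.46 to -0.31 on the log2 scale. The median of the 10 was -0.30, against 0.01 over all tested genes. Rela fell by 0.31 ± 0.09 on the log2 scale (edgeR adjusted p = 0.0242).

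Of the 22 alternatives, Nfkbie passed the threshold under 21, Nfkb2 under 20, Nfkbib under 19 and Rela under 17. Nfkbia passed the threshold under all 22 alternatives, with a log2 fold change between -0.39 and -0.25. The count of called members fell to 3 without YEXX-2A replicate 1 and to 1 without YEXX-2A replicate 2, while the count over all genes fell too, to 1459 and 1044, against 4145 with all libraries. Nfkbib was lost without YEXX-2A replicate 1 or 2 (log2 fold change -0.43 and -0.47, edgeR adjusted p = 0.0603 and 0.0588), and so was Rela (-0.28 and -0.29, edgeR adjusted p = 0.0821 and 0.0951). Nfkb2 and Nfkbie were lost without YEXX-2A replicate 2, at log2 fold changes of -0.41 and -0.43 (edgeR adjusted p = 0.0629 and 0.0531). Without vehicle replicate 2, the changes of Nfkb2 and Rela shrank to -0.26 and -0.20, both still called. Both compounds were set against the same 3 vehicle libraries, so their differences from vehicle are not independent of each other.

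The direct comparison of the compounds does not use the vehicle libraries as a reference. With YWCH-4A, 9 of the 10 genes were higher than with YEXX-2A and 0 were lower, where 16.2% of tested genes were called higher and 15.1% lower. At least 2-fold differences were called for 7 of the 10, against 3.07% of tested genes. The 9 had no overlap between the groups, as did 29.9% of tested genes in that direction. The largest differences were 2.46 ± 0.07 on the log2 scale for Nfkbia (edgeR adjusted p = 3.6e-09) and 2.46 ± 0.09 for Tnfaip3 (edgeR adjusted p = 2.13e-08). Rela was 0.49 ± 0.09 higher (edgeR adjusted p = 0.00165), and Rel differed by -0.09 ± 0.28 (edgeR adjusted p = 0.834). The remaining 6 called genes differed by 0.97 to 1.96. The doses of the compounds are not given, so these differences are between the treatments as applied.

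Because FPKM values are scaled to gene length, they allow levels of different genes within a group to be set side by side. Between groups they are shifted: with YWCH-4A against vehicle the median log2 fold change over all genes was 0.19 on log2(FPKM + 1). On counts it was 0.03. Rela had the highest level of the 10 in every group, at 137 ± 3.79 FPKM with YWCH-4A, 91.5 ± 4.04 FPKM with YEXX-2A and 106 ± 8.90 FPKM with vehicle (SD, n = 3 each), and Rel the lowest. Nfkbia stood next with YWCH-4A at 130.0 ± 2.37 FPKM, just under Rela and without overlap. It had 22.2 ± 0.209 FPKM with YEXX-2A, below Nfkb2 and Nfkb1, and 26.7 ± 2.79 FPKM with vehicle, where its range overlapped that of Nfkb1, which overlapped that of Nfkbie. With YWCH-4A, Nfkb1 overlapped Nfkbie, and Tnfaip3 overlapped Relb, at 33.9 ± 0.627 and 34.0 ± 1.68 FPKM. Tnfaip3 and Birc3 overlapped both with YEXX-2A and with vehicle, and so did Nfkbib and Relb.

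The balance of inhibitor to subunit transcripts moved with these changes. The summed FPKM of the 3 IκB genes divided by that of the 5 subunits was 0.650, 0.650 and 0.636 with YWCH-4A, 0.312, 0.306 and 0.295 with YEXX-2A and 0.342, 0.315 and 0.351 with vehicle. The YWCH-4A libraries were far above all others, and the YEXX-2A libraries lay only narrowly below the vehicle libraries. The highest YEXX-2A ratio, 0.312, was next to the 0.315 of vehicle replicate 2. For Nfkbia over Rela the ratio was 0.948 ± 0.0422 with YWCH-4A, 0.243 ± 0.0118 with YEXX-2A and 0.254 ± 0.0437 with vehicle (SD, n = 3 each). These ratios are a description of the members and were given no test.

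The make-up of the subunit transcripts shifted as well. Rela made up 42.6% ± 0.963 of the summed subunit FPKM with YWCH-4A, 53.9% ± 1.58 with YEXX-2A and 55.0% ± 0.578 with vehicle. Relb made up 10.5% ± 0.431 with YWCH-4A, 6.66% ± 0.368 with YEXX-2A and 6.49% ± 0.408 with vehicle. Within the IκB genes, Nfkbia held 62.5% ± 0.751 with YWCH-4A, 43.0% ± 0.932 with YEXX-2A and 41.3% ± 4.87 with vehicle. The ratio of Nfkb2 to Nfkb1 was 1.73 ± 0.0667 with YWCH-4A, 1.497 ± 0.0468 with YEXX-2A and 2.05 ± 0.413 with vehicle, where vehicle replicate 2 alone reached 2.52.

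**Figure D4:**
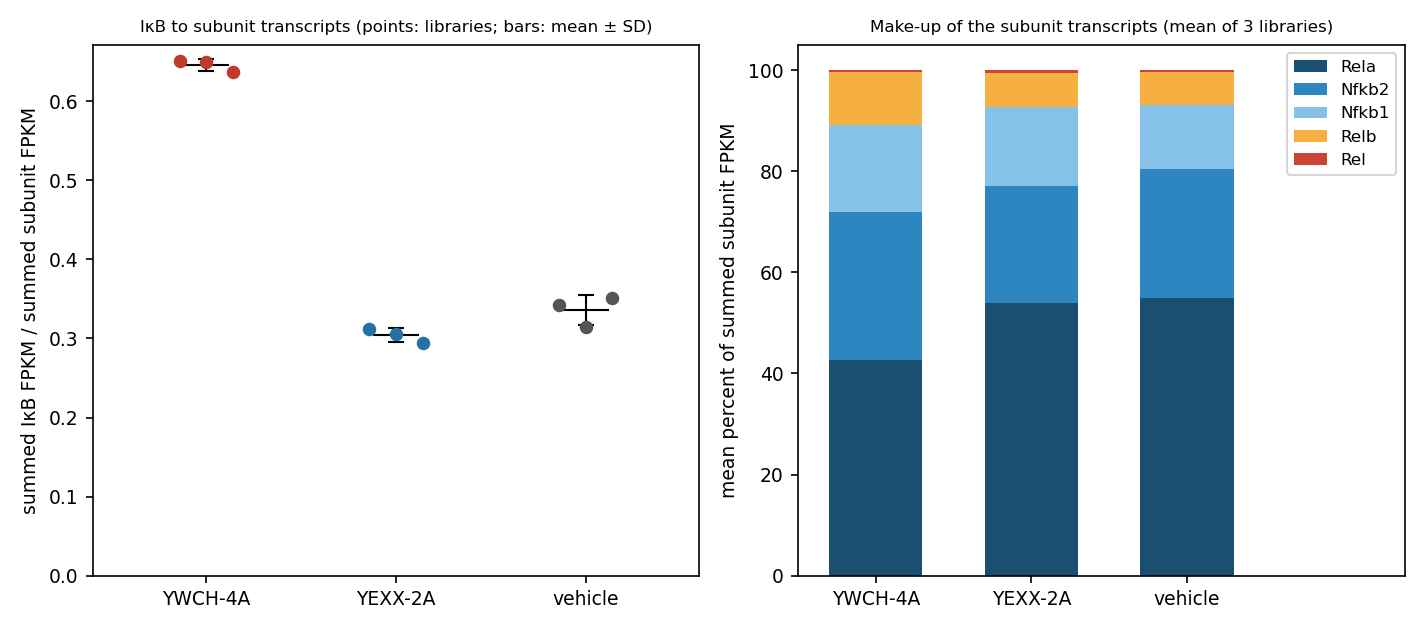
Left, summed FPKM of the 3 IκB genes divided by the summed FPKM of the 5 subunits (y axis) in each library of YWCH-4A, YEXX-2A and vehicle, with the mean ± SD. Right, mean percent of the summed subunit FPKM taken by each subunit over 3 libraries. The ratio is 0.646 with YWCH-4A, 0.304 with YEXX-2A and 0.336 with vehicle, and the Rela share is lowest with YWCH-4A.

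Over the 9 libraries, likeness was measured as the root mean square difference of log2 CPM centred on each gene's mean. Nfkbia and Tnfaip3 were each other's nearest member, at 0.136, and Nfkb2 and Nfkbib were each other's nearest at 0.0766. Outside the 10, the genes nearest to Nfkbia were Hcar2 (0.106), Ampd3 (0.124), Plpp3 (0.128), Egln3 (0.146) and Zc3h12a (0.149), where the median over all tested genes was 1.10. Those nearest to Rela were Man2a2 (0.0322), Hexa (0.0324), Tyk2 (0.0357), Gigyf1 (0.0367) and Mcm3 (0.0381), where the median was 0.322.

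The wider pathway moved less evenly than the members. With YWCH-4A against vehicle, 2 of 15 tested atypical IκB proteins and nuclear regulators were called higher and 1 lower, or 20% in all, which is under the background of 30.6% called in either direction. Nfkbiz, an inducible nuclear IκB protein, averaged 78.3 ± 1.75 CPM with YWCH-4A, 10.8 ± 1.35 with YEXX-2A and 16.8 ± 3.74 with vehicle, a log2 fold change of 2.22 ± 0.15 with YWCH-4A against vehicle (edgeR adjusted p = 1.21e-06). Bcl3, a coactivator of p50 and p52 dimers, rose by 0.78 ± 0.13 on the log2 scale (edgeR adjusted p = 0.00101). Ppp1r13l, which encodes a Rela-binding inhibitor, fell by 0.57 ± 0.10 on the log2 scale (edgeR adjusted p = 0.00189). The median of the list was 0.03.

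Of 22 other negative regulators tested, 8 were called higher and 1 lower with YWCH-4A against vehicle, and the median was 0.24. That is 40.9% called in either direction, against 30.6% of all tested genes. Zc3h12a, an RNase that degrades cytokine transcripts, averaged 303 ± 12.6 CPM with YWCH-4A, 54.5 ± 3.47 with YEXX-2A and 74.1 ± 9.13 with vehicle, and rose by 2.03 ± 0.09 on the log2 scale with YWCH-4A (edgeR adjusted p = 6.86e-08). Tnip1, a partner of Tnfaip3, rose by 1.23 ± 0.08 (edgeR adjusted p = 7.25e-07). Irak3, which blocks Toll-like receptor signalling, rose by 0.98 ± 0.07 (edgeR adjusted p = 1.57e-06). The gene called lower was Fbxw7, a substrate receptor of a ubiquitin ligase that targets p100, at -1.10 ± 0.21 (edgeR adjusted p = 0.00274).

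Of 25 tested IKK components, upstream kinases and ubiquitin ligases, 7 were called higher and 1 lower with YWCH-4A against vehicle. The share in either direction, 32%, was near the 30.6% of all tested genes. By direction, 28% were called higher and 4% lower, against 15.7% and 14.9% of all tested genes. The median was 0.17. Map3k8 had the largest change, 2.98 ± 0.30 on the log2 scale (edgeR adjusted p = 3.24e-05). Its level was low, at 6.83 ± 0.995 CPM with YWCH-4A, 1.47 ± 0.125 with YEXX-2A and 0.831 ± 0.494 with vehicle. Ikbke, a kinase related to IKK, averaged 56.3 ± 2.94 CPM with YWCH-4A, 20.2 ± 0.846 with YEXX-2A and 22.5 ± 0.608 with vehicle, a rise of 1.32 ± 0.08 on the log2 scale (edgeR adjusted p = 5.9e-07). Map3k14, the kinase that starts the alternative pathway, was the gene called lower, at -0.74 ± 0.11 with YWCH-4A against vehicle (edgeR adjusted p = 0.000455) and -0.66 ± 0.11 with YEXX-2A against vehicle (edgeR adjusted p = 0.00353). Of 25 tested receptors and adaptors, 10 were called higher and 4 lower with YWCH-4A, with a median of 0.28. The share called in either direction was 56%, against 30.6% of all tested genes. Tlr2, a receptor for bacterial lipoproteins, rose by 4.18 ± 0.28 on the log2 scale at a low level, to 7.93 ± 0.911 CPM with YWCH-4A, against 0.465 ± 0.152 with YEXX-2A and 0.433 ± 0.193 with vehicle (edgeR adjusted p = 1.34e-06). It passed the filter on low counts only through the YWCH-4A libraries. Traf1, an adaptor of TNF receptors, rose by 1.57 ± 0.12 (edgeR adjusted p = 3.25e-06). The 4 called lower, named after their values were seen, were Traf4, Traf5, Card10 and Tnfrsf1a, at -0.82 to -0.31.

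Of the pathway lists, the textbook target genes moved furthest, though the lists were chosen with earlier results of these data known. With YWCH-4A against vehicle, 33 of 41 tested targets were called higher, 29 of them by at least 2-fold, and 3 lower. Of 46 listed targets, 44 were matched and 41 passed the filter on low counts, so listed genes that failed it were left out. Ccl20, Il1a and Il1b passed it only through the YWCH-4A libraries, so their rise was in effect required for them to be tested. Over all tested genes, 15.7% were called higher, 3.21% at least 2-fold higher and 14.9% lower. The median of the targets was 1.81. The 29 include Rab32, whose link to NF-κB is not firmly established. Sod2, the mitochondrial superoxide dismutase, averaged 898 ± 29.8 CPM with YWCH-4A, 93.4 ± 4.02 with YEXX-2A and 110 ± 4.58 with vehicle, a rise of 3.03 ± 0.06 on the log2 scale (edgeR adjusted p = 7.32e-10). Mmp9, a matrix protease, averaged 620.3 ± 38.3 CPM with YWCH-4A, 15.6 ± 0.623 with YEXX-2A and 17.2 ± 3.20 with vehicle, and its rise of 5.17 ± 0.12 on the log2 scale (edgeR adjusted p = 9.94e-10) was the largest of the 29, of which Psmb9 had the smallest, at 1.01 ± 0.08. Log2 rises with YWCH-4A were 4.26 for the nitric oxide synthase Nos2, 3.66 for the protease Mmp3, 3.95 and 4.33 for the chemokines Cxcl1 and Cxcl2 and 4.41 for the cytokine Csf3, all called. Cx3cl1, a membrane-bound chemokine, rose by 3.95 ± 0.11 (edgeR adjusted p = 2.28e-09). Lcn2, a secreted iron-siderophore binder of injured kidney, rose by 3.60 ± 0.12 (edgeR adjusted p = 1.15e-08). Complement C3 rose by 2.35 ± 0.13 (edgeR adjusted p = 2.95e-07). Ptges, the inducible prostaglandin E synthase, rose by 3.85 ± 0.22 (edgeR adjusted p = 3.55e-07). Vcam1, an adhesion molecule, rose by 2.86 ± 0.24 (edgeR adjusted p = 6.35e-06).

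The 3 targets called lower were Myc, at -1.40 ± 0.08 (edgeR adjusted p = 3.6e-07), the interferon-responsive chemokine Cxcl10, at -0.996 ± 0.08 (edgeR adjusted p = 6.33e-06), and Gadd45b, a stress-response gene, at -0.57 ± 0.09 (edgeR adjusted p = 0.000526). Cxcl10 and Gadd45b were named after their values were seen. Some targets were almost absent with vehicle: Ccl20 had 121 counts over the YWCH-4A libraries and 3 over the vehicle libraries, a ratio of 29.7 after scaling (95% interval 9.93 to 146, counting error only). Il1b had 65 counts with YWCH-4A and 2 with vehicle, a ratio of 24.0 (6.37 to 202).

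With YEXX-2A against vehicle, 18 of the 41 targets were called lower and 3 higher, with a median of -0.23. Over all tested genes, 18.5% were called lower and 17.6% higher. The 3 higher ones were the cell-death inhibitors Cflar and Xiap, named after their values were seen, and the immunoproteasome gene Psmb9. Without YEXX-2A replicate 1 the counts were 12 lower and 1 higher, and without YEXX-2A replicate 2 they were 10 lower and 0 higher. Calls over all genes fell to 1459 and 1044 in these settings, against 4145 with all libraries, and the median of the targets stayed at -0.24 and -0.26. Of the 18, 2 were called at least 2-fold lower. Mmp3, a matrix protease, averaged 81.0 ± 2.01 CPM with YEXX-2A and 163 ± 11.8 with vehicle, a log2 fold change of -1.01 ± 0.07 (edgeR adjusted p = 5.09e-05). Csf3 changed by -1.27 ± 0.29 (edgeR adjusted p = 0.0122) at a low level, 1.18 ± 0.538 CPM with YEXX-2A and 2.81 ± 0.336 with vehicle. Lif, a cytokine of the interleukin-6 family, fell by 0.54 ± 0.10 on the log2 scale (edgeR adjusted p = 0.00507). In the other lists the calls with YEXX-2A ran both ways: 1 higher and 5 lower of 15 atypical IκB proteins and nuclear regulators, 5 and 5 of 22 other negative regulators, 4 and 5 of 25 IKK components, kinases and ligases, and 3 and 7 of 25 receptors and adaptors. The shares called in either direction were 40%, 45.5%, 36% and 40%, against 36.1% of all tested genes. Leaving out YEXX-2A replicate 2 left these 4 lists with 0 higher calls each and 3, 2, 1 and 2 lower calls, while calls over all genes fell to 1044, against 4145 with all libraries.

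**Figure D5:**
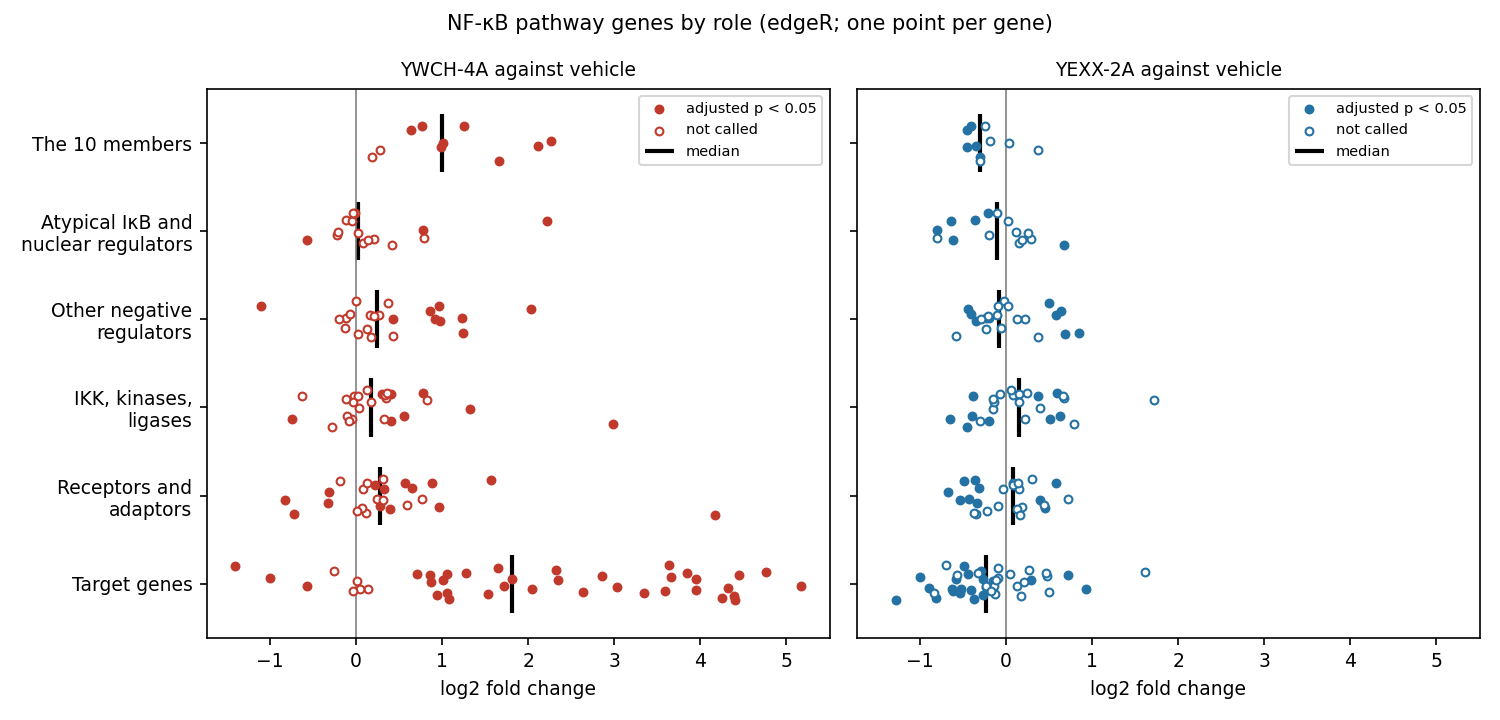
Log2 fold change (x axis) of each tested gene of the pathway by role (rows), with YWCH-4A against vehicle on the left and YEXX-2A against vehicle on the right. Each point is a gene, filled where called at an adjusted p under 0.05 in edgeR, and black bars are medians. With YWCH-4A the target genes have a median of 1.81 and the members 1.00, and the other lists lie between 0.03 and 0.28.

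The share of promoters with a κB consensus match differed between the pathway lists. Only genes with a single RefSeq promoter were counted. A match lay in 11 of the 27 tested targets with such a promoter, or 40.7%. This compares with 9.9% of promoters of tested genes and 17.9% of the 246 promoters of genes at least 2-fold higher with YWCH-4A than with vehicle. The share was 4 of 10, or 40%, for atypical IκB proteins and nuclear regulators, 27.8% for other negative regulators, 26.3% for IKK components, kinases and ligases and 15.8% for receptors and adaptors. The shares are descriptions with no test, and the gene lists were drawn up for their known links to NF-κB.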

How the data were processed

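For every gene the authors deposited an estimated count and an FPKM value in each library, per the file headers. The submitters' processing notes name StringTie 1.3.1, RSEM, edgeR and DESeq2 without saying what each was for. Aligner, genome build and strand setting are not given in the sources used here, so reads of overlapping antisense genes may be included. Fractional estimates made up 8.87% of the deposited counts above 0, and all were rounded. Genes were filtered with filterByExpr (minimum count 10), scaled with TMM factors and tested by robust quasi-likelihood fits in edgeR 4.0.16 with all 9 libraries in R 4.3.3. P-values were two-sided and Benjamini-Hochberg adjusted over 11473 genes, with calls at 0.05. Standard errors are the log2 change over the square root of F. The labels call the replicates biological but do not say that cultures were separate, and the p-values reflect only how much these libraries varied. Groups varied unequally, with a biological coefficient of variation of 3.67% with YWCH-4A, 7.34% with YEXX-2A and 16.7% with vehicle, while the test shares 1 estimate of the spread. No pair of libraries was a duplicate: at most 1.63% of genes had equal counts. FPKM was tested with limma 3.58.1 on log2(FPKM + 1). Other alternatives used DESeq2 1.42.0, other scalings and filters, voom, a replicate block, a within-group score and libraries left out. The members and lists were chosen with earlier results of these data known. Genes were named from among the members, the 4 genes of smallest p per list, list genes called at 2-fold, and the 5 nearest to Nfkbia and to Rela. The edgeR step was also tested on simulated data.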

Additional observations from a re-analysis of the deposited data

How the results depend on the processing

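With YWCH-4A, 8 or 9 members were called against vehicle and 9 against YEXX-2A under all 22 alternatives. Calls with YEXX-2A against vehicle depended on the processing. The 5 called members became 2 with the 2 groups alone, 8 with the within-group score as a covariate, and 1 to 6 with a library left out. The score was taken from these data, so its p-values may be too small. Genes called with YEXX-2A against vehicle numbered 4145, but 1408 with the 2 groups alone, 7323 with the score, and 1044 to 5308 with a library left out. With YWCH-4A against vehicle they numbered 3516, but 6491 with the score, and 2450 to 4588 with a library left out. With YWCH-4A against YEXX-2A they numbered 3593, but 5903 with the 2 groups alone, 5994 with group weights in voom, 6485 with the score, and 2225 to 6001 with a library left out. The cause of these shifts was not tested.

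No pairing by replicate number was seen: the correlations of same-numbered libraries' deviations ran from -0.265 to 0.0807. With 3 libraries a group, such correlations cannot exclude a pairing. With the number as a replicate block, 1931 genes were called with YEXX-2A against vehicle, and Rela was no longer called there (-0.30, edgeR adjusted p = 0.0582).

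On log2(FPKM + 1), the share of calls that were higher with YWCH-4A against vehicle was 78.7%, against 51.2% in the count test. It was 62.5% against 48.8% with YEXX-2A against vehicle and 73.7% against 51.7% between the compounds.

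Reversals touched values that were not called. Rel, with YWCH-4A against YEXX-2A, was 0.0038 and 0.0025 on FPKM and ran from -0.26 to 0.13 with a library left out. Map3k14 in that comparison was 0.00915 and 0.00784 on FPKM and ran from -0.16 to 6.97e-06. With YEXX-2A against vehicle, FPKM gave 0.0118 and 0.0115 for Map3k3 and 0.00971 and 0.00391 for Rab32, and voom gave -0.13 for Il1b. With a library left out, the log2 fold changes in this comparison ran from -0.044 to 0.26 for Ccl2, -0.16 to 0.17 for Fbxw7, -0.82 to 0.75 for Il1b, -0.23 to 0.011 for Mmp9, -0.26 to 0.093 for Rab32 and -0.046 to 0.58 for Tlr2. Il1b and Ccl20 had few counts with YEXX-2A and with vehicle, and cannot show small changes between these groups. Rel, with 13 to 57 counts per library, cannot show small changes in any comparison.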
